A study of Mus musculus with 6 samples.

Results

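The interleukin 12 family and interferon cytokines are a group of 10 genes named by symbol: the ligand chains Il12a, Il12b, Il23a, Il27 and Ebi3, the interferons Ifnb1 and Ifng, and the receptor chains Il12rb1, Il12rb2 and Ifnar1. Of these, 9 were measured, by 11 of the 38195 probe sets tested. A probe set is a group of short array probes against 1 transcript. Every probe set that the platform annotation assigned to 1 of the symbols alone was used, and no limit on signal or difference was applied. No row was assigned to Il27 alone, and it is not analysed here. The genes were chosen by symbol with the differences between Tmbim1 knockout and Flox wild type hearts already in view, so those differences are given as a description, and their adjusted p-values, which come from the fit over all probe sets, are no independent evidence about the group.

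RNA came from hearts of 8-week-old C57BL/6 mice, 3 labelled Tmbim1 KO and 3 labelled as Flox wild type, with 1 Affymetrix array per mouse. All 6 mice had undergone aortic banding (binding in the labels), a narrowing of the aorta that loads the left ventricle, for 2 weeks, and hearts without surgery were not analysed here. The labels give neither the cells in which Tmbim1 was deleted nor the Cre driver, and they do not say whether the mice were littermates. Tmbim1, an endosomal and lysosomal membrane protein gene, read 8.58, 8.38 and 8.33 on the log2 scale in wild type hearts and 7.53, 7.49 and 7.56 in knockout hearts. The groups did not overlap (difference -0.91, SE 0.10, limma adjusted p = 0.00579), and without knockout replicate 2 the adjusted p was 0.0512. Where the probes of its probe set lie relative to the deleted part is not known.

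Interleukin 12 cytokines are heterodimers. Each pairs a helical alpha chain with a beta chain that resembles a soluble receptor. Il12a with Il12b makes interleukin 12, Il23a with Il12b makes interleukin 23, Il27 with Ebi3 makes interleukin 27, and Il12a can also pair with Ebi3. Dendritic cells and macrophages are the main known sources of interleukin 12, which acts through Il12rb1 and Il12rb2 on T and NK cells and drives them to make interferon gamma, the product of Ifng. Interferon beta, the product of Ifnb1, is a type I interferon that most nucleated cells can make on sensing microbial or endogenous nucleic acids, and it signals through Ifnar1 and its partner Ifnar2.

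The RefSeq table for GRCm38.p6 held promoter sequence for 7 of the 10 genes and not for Il23a, Il27 and Il12rb1. The 250 bases before the annotated start are shown for the 3 genes that stood higher in knockout hearts, and for Ifng, the other interferon, which did not. Capitals mark matches, on either strand, to the core of an NF-kB site (GGANNTTCC), the core bound by interferon regulatory factors (AANNGAAA), an AP-1 site (TGANTCA) or a TATA box core (TATAA).
Ifnb1, chr4:88522795-88523044, minus strand: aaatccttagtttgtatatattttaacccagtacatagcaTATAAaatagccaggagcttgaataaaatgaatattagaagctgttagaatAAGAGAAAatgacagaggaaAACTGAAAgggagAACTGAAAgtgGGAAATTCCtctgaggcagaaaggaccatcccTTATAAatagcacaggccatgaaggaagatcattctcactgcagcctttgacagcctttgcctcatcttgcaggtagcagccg
Il12a, chr3:68690394-68690643, plus strand: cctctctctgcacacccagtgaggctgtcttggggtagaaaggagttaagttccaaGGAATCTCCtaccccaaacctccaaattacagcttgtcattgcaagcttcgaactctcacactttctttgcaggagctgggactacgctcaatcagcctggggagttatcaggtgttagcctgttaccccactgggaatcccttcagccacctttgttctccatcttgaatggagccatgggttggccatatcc
Il12b, chr11:44399813-44400062, plus strand: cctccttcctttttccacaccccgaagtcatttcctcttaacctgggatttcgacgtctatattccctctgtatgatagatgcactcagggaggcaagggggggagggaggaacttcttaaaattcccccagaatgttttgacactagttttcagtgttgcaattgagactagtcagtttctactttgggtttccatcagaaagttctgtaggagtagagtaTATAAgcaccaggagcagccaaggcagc
Ifng, chr10:118440796-118441045, plus strand: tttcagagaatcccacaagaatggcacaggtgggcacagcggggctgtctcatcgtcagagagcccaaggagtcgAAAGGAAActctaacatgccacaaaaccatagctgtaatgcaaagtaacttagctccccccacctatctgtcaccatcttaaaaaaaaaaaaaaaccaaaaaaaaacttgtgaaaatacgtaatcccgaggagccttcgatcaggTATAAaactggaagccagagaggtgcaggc

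The Ifnb1 window held the NF-kB core 115 bases before the annotated start, in a match that reads on both strands, with interferon regulatory factor cores beginning 159, 139 and 126 bases before it. Its TATA core lay 82 bases before the start, overlapping a match on the other strand that began 1 base earlier, with a further TATA core at 210 bases. The Il12a window had 1 NF-kB core match, at 194 bases on the minus strand, and the window before a second annotated start of Il12a had no match to any of the 4 motifs. The Il12b window held a TATA core 28 bases before the start and no other match. Ifng held a TATA core at 30 bases and an interferon regulatory factor core at 175 bases. Over all 32817 promoter windows of this length, 3.6% held the NF-kB core, 21.3% the interferon regulatory factor core, 6.8% the AP-1 site and 22.8% the TATA core. A match describes the letters only. A site whose letters depart from these patterns is not marked, so a window without a match may still hold one.

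The values are log2 signals after RMA, and each is also given as its percentile among the probe sets of its own array, since most members were dim. The lower quartile of the arrays lay at 2.72 to 2.78, the median at 4.24 to 4.28 and the upper quartile at 6.15 to 6.24. A percentile places a probe set on its array and does not compare the amounts of different transcripts. A pair of arrays stood apart. Knockout replicate 1 carried the atrial myosin light chain gene Myl7 at 12.86, against 3.45 to 3.90 on the other arrays. The atrial genes Myl4 and Sln read 12.98 and 12.17 on it, against 4.29 to 4.87 and 2.42 to 2.77 on the others. The hearts thus did not carry atrial transcripts evenly, and how much atrial tissue each sample held was not tested. Wild type replicate 3 lay at -37.0 on the first principal component (37.4% of the variance), where the other wild type arrays lay at -8.48 and -9.65 and the knockout arrays at 11.0 to 23.4. Cardiomyocyte markers (8 of 8 measured) were bright on all arrays, with a mean log2 signal of 12.83 to 12.93 in wild type and 12.69 to 12.74 in knockout hearts. All 8 were negative (knockout minus wild type, -0.41 to -0.03), with 0 at a limma adjusted p under 0.05. In 6 of 8 every knockout array lay below every wild type array, which held for 8.42% of all probe sets.

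Of the 11 member probe sets, 3 were past the threshold (limma adjusted p under 0.05) and all 3 were higher in knockout hearts: those of Il12a and Ifnb1 and 1 of the 2 of Il12b. Over all 38195 probe sets, 0.422% were past the threshold, 0.238% as higher. Among the 19097 probe sets whose mean signal was below the median, where Il12a and Il12b lay, 10 (0.0524%) were past it as higher. The same 3 member probe sets were the ones with every knockout array above every wild type array, which held for 6.74% of all probe sets. The reverse order held for none of the 11 members and for 8.42% of all probe sets. The member probe sets had a median difference of 0.04, with 6 of 11 positive, and all probe sets a median of -0.0022.

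**Figure D1:**
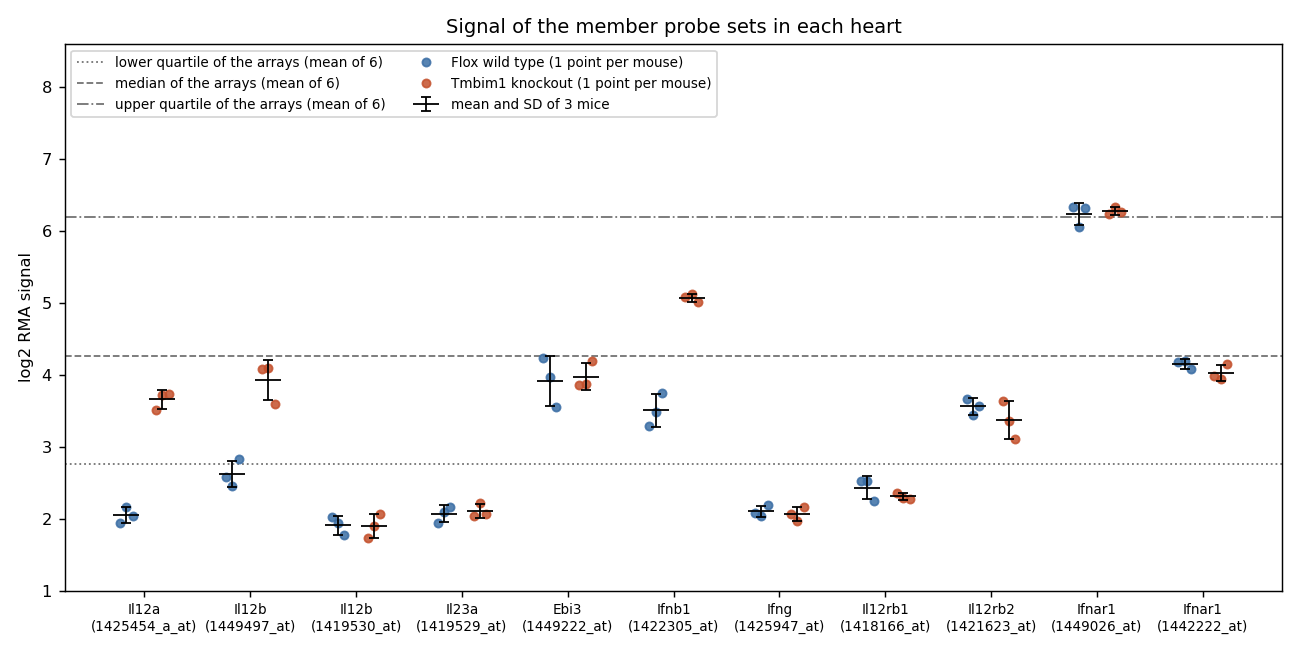
Log2 RMA signal (y axis) of each member probe set (x axis) in each heart, with 1 point per mouse, black bars for the mean and SD of 3 mice, and horizontal lines for the lower quartile, median and upper quartile of the arrays (mean of 6). The knockout points lie above all wild type points for Il12a, Ifnb1 and the brighter Il12b probe set, and the groups overlap for the other 8.

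Il12a, which encodes the alpha chain of interleukin 12, read 1.94, 2.16 and 2.04 in wild type hearts and 3.51, 3.72 and 3.74 in knockout hearts. The lowest knockout value lay 1.35 above the highest wild type value. The means were 2.05 ± 0.11 and 3.66 ± 0.13 (SD, n = 3), which differ by 1.61 (SE 0.11, 95% interval 1.37 to 1.85, limma adjusted p = 0.000362), 3.05-fold on the RMA scale. In wild type hearts the probe set stood at the 8.09th to 13.6th percentile of its array, below the lower quartile on all 3 arrays. In knockout hearts it stood at the 38.1st to 42.5th percentile, between the lower quartile and the median. At so dim a wild type signal the size of the fold is uncertain, because RMA can compress differences there.

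Il12b encodes the beta chain that interleukin 12 and interleukin 23 share, and its probe sets disagreed. The brighter one read 2.58, 2.46 and 2.82 in wild type hearts and 4.08, 4.09 and 3.60 in knockout hearts. The groups were apart by 0.78, and knockout replicate 3 was the lowest of its group. The means were 2.62 ± 0.19 and 3.92 ± 0.28 (SD, n = 3), which differ by 1.30 (SE 0.15, 95% interval 0.97 to 1.64, limma adjusted p = 0.00671), 2.47-fold. Of the wild type values, 2 of 3 lay below the lower quartile of their array, and the knockout values stood at the 40.2nd to 47.6th percentile. The dimmer one read 2.02, 1.94 and 1.77 in wild type hearts and 1.73, 1.90 and 2.06 in knockout hearts. It lay below the lower quartile on all 6 arrays (percentiles 4.40 to 11.1), the groups overlapped, and the difference was -0.01 (95% interval -0.27 to 0.25). Where the probes of each lie in the transcript was not examined here.

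Il23a, the alpha chain gene of interleukin 23, read 1.93, 2.10 and 2.17 in wild type hearts and 2.04, 2.22 and 2.07 in knockout hearts. All 6 values were below the lower quartile, and the difference was 0.04 (95% interval -0.19 to 0.27, limma adjusted p = 0.942). Ebi3, the beta chain gene of interleukin 27, read 4.24, 3.97 and 3.55 in wild type hearts and 3.86, 3.87 and 4.19 in knockout hearts. It lay between the lower quartile and the median on every array, and the knockout values lay within the wild type range. Its difference was 0.06 (95% interval -0.32 to 0.43, limma adjusted p = 0.957).

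**Figure D2:**
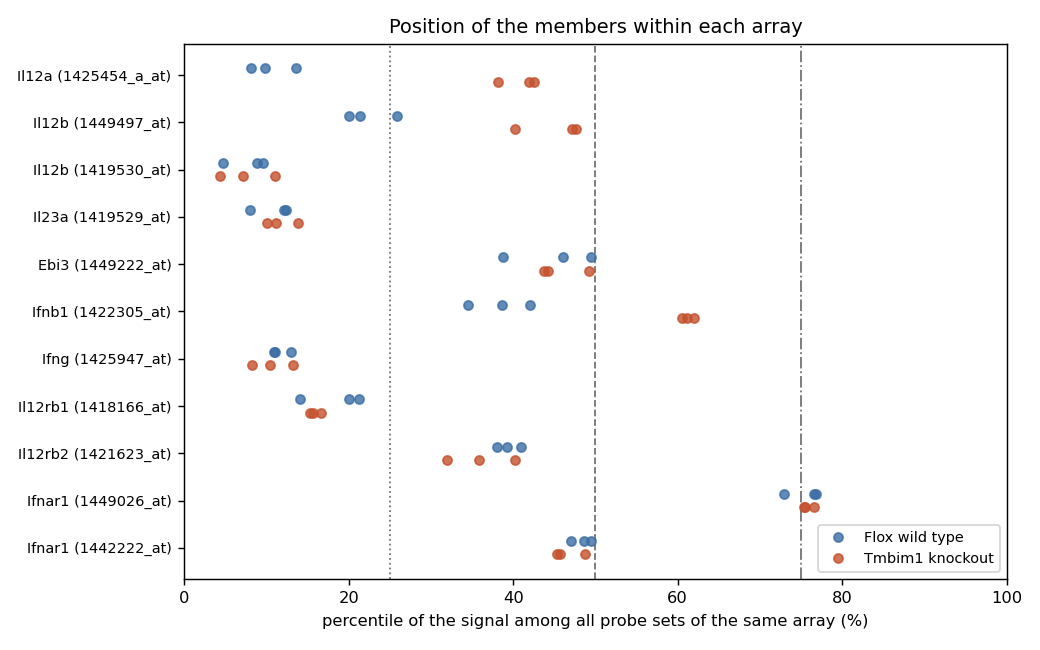
Percentile of each member's signal among all probe sets of the same array (x axis, %), with 1 point per heart and vertical lines at the lower quartile, median and upper quartile. Il12a moves from 8.09 to 13.6 in wild type to 38.1 to 42.5 in knockout hearts, and Ifnb1 is above the median in the 3 knockout hearts alone.

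Ifnb1, the interferon beta gene, read 3.29, 3.48 and 3.75 in wild type hearts and 5.08, 5.12 and 5.02 in knockout hearts. The groups were apart by 1.27, and the knockout values were closely grouped. The means were 3.51 ± 0.23 and 5.07 ± 0.05 (SD, n = 3), which differ by 1.56 (SE 0.12, 95% interval 1.29 to 1.84, limma adjusted p = 0.00101), 2.96-fold. It stood at the 34.5th to 42.1st percentile in wild type hearts and at the 60.5th to 62.0th in knockout hearts, above the median of all 3 knockout arrays and of no wild type array.

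Ifng, the interferon gamma gene of T and NK cells, read 2.08, 2.04 and 2.19 in wild type hearts and 2.06, 1.96 and 2.16 in knockout hearts. The signal was below the lower quartile on all 6 arrays, and the difference was -0.04 (95% interval -0.26 to 0.18, limma adjusted p = 0.939). Whether Ifng transcript was present at all cannot be read from a signal this low.

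The receptor genes did not pass. Il12rb1, the chain shared by the receptors of interleukin 12 and interleukin 23, read 2.52, 2.53 and 2.24 in wild type hearts and 2.36, 2.29 and 2.28 in knockout hearts, all below the lower quartile (difference -0.12, 95% interval -0.36 to 0.12). Il12rb2, the signalling chain of the interleukin 12 receptor, read 3.67, 3.44 and 3.57 in wild type hearts and 3.64, 3.36 and 3.11 in knockout hearts (difference -0.19, 95% interval -0.50 to 0.12). It lay between the lower quartile and the median on every array, and the groups overlapped.

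Ifnar1, a chain of the type I interferon receptor, was the one member near the upper quartile. Its brighter probe set read 6.34, 6.06 and 6.31 in wild type hearts and 6.24, 6.34 and 6.26 in knockout hearts, above the upper quartile on 5 of 6 arrays. The difference was 0.04 (95% interval -0.19 to 0.28, limma adjusted p = 0.947). The dimmer one read 4.18, 4.20 and 4.08 in wild type hearts and 3.99, 3.94 and 4.15 in knockout hearts, a difference of -0.12 (95% interval -0.35 to 0.10). Both overlapped between the groups.

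**Figure D3:**
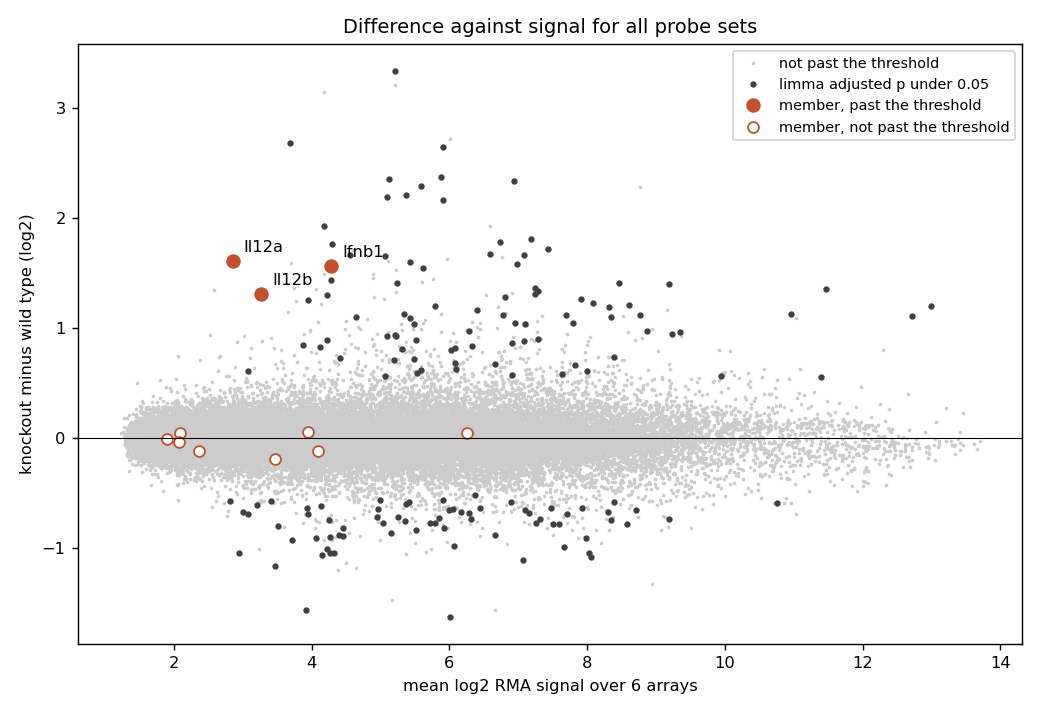
Difference between knockout and wild type (y axis, log2) against mean log2 signal over 6 arrays (x axis) for all 38195 probe sets, with those past the threshold in dark and the members as large points. Il12a, Il12b and Ifnb1 lie at differences of 1.61, 1.30 and 1.56, toward the dim end of the probe sets past the threshold, and the other 8 member probe sets lie near 0.

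Ordered by difference over all probe sets, Il12a was number 29, Ifnb1 number 34 and the Il12b probe set number 55. Of the 91 probe sets past the threshold as higher, 19 had a larger difference than Il12a, 22 than Ifnb1 and 32 than Il12b. With single arrays left out, the difference of Il12a ran from 1.55 to 1.68 (adjusted p at most 0.00811) and that of Ifnb1 from 1.46 to 1.69 (adjusted p at most 0.0113). That of Il12b ran from 1.22 to 1.46, and its adjusted p rose to 0.0591 without knockout replicate 2. Without knockout replicate 1 and wild type replicate 3 together, the differences were 1.68 for Il12a (limma adjusted p = 0.00722), 1.68 for Ifnb1 (limma adjusted p = 0.00722) and 1.33 for Il12b (limma adjusted p = 0.0523). All 3 calls were lost in a test that shares no variance between probe sets. In this ordinary two-sample test 1 of the 38195 probe sets was past the threshold and 0 of the 11 member probe sets were. These 3 stood at an unadjusted p under 0.05 in it, as did 3234 of all 38195.

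**Figure D4:**
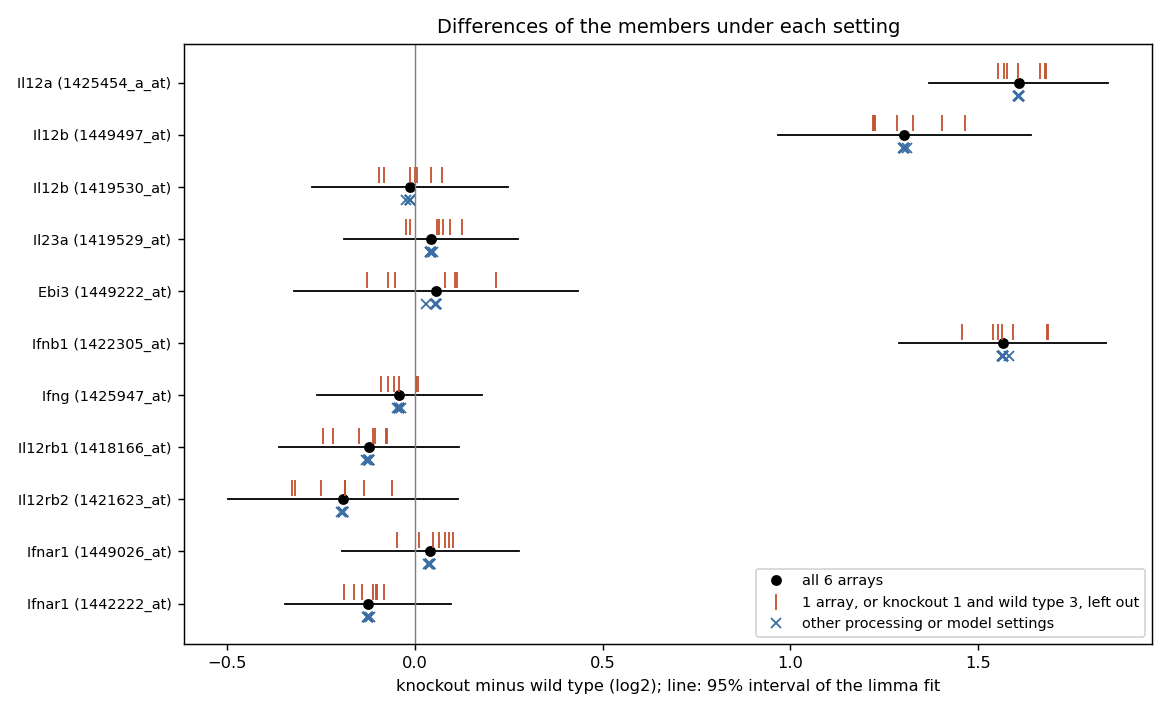
Difference between knockout and wild type (x axis, log2) of each member probe set with all 6 arrays (black points, with the 95% interval of the limma fit), with arrays left out (orange ticks) and under other processing or model settings (blue crosses). Il12a stays between 1.55 and 1.68 and Ifnb1 between 1.46 and 1.69, while the dimmer Il12b probe set, Il23a, Ebi3, Ifng and the brighter Ifnar1 probe set have values on both sides of 0.

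The genes around the members were read from 7 lists with 49 of 63 genes measured, each by its brightest probe set. Of the 49, 1 gene was past the threshold, Socs3, and 0.549% of the 18029 genes measured were. At an unadjusted p under 0.05 stood 8 of the 49 (16.3%) and 11.5% of all genes measured, the background for the counts of the single lists. The median difference of all genes was -0.0020, with 49.4% positive, and 18 of the 49 pathway genes were positive.

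Partner receptor chains had a median of 0.05, with 0 of 5 past the threshold by limma and 1 at an unadjusted p under 0.05. The median turned negative without wild type replicate 1 (-0.061) or wild type replicate 3 (-0.080). The gene under 0.05 was Ifngr2, a chain of the interferon gamma receptor, at -0.57 (limma adjusted p = 0.277). Il27ra, the interleukin 27 receptor gene, was at 0.07 and Il6st, the gp130 chain that interleukin 27 and interleukin 6 receptors use, at -0.13. A dimmer probe set of Il6st, named after its values were seen, was past the threshold (0.92, limma adjusted p = 0.0454). Its adjusted p ran from 0.0266 to 0.19 with single arrays left out, past the threshold only without knockout replicate 2. The remaining probe sets of Il6st were negative like the brightest, at -0.21 and -0.17, and did not pass. The JAK kinase and STAT factor list had a median of -0.06, with 0 of 7 past the threshold by limma and 1 at an unadjusted p under 0.05. Jak1 was at -0.30, Stat2 at -0.20, Stat3 at 0.17 and Stat4, the STAT that interleukin 12 activates, at -0.06.

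The other interferon genes, mostly of the interferon alpha family, had a median of -0.12, with 0 of 8 past the threshold by limma and 1 at an unadjusted p under 0.05. Ifnz was at -0.27 and Ifna9 at -0.24. The alpha genes are near-identical copies, so a probe set may read more than 1 of them. Transcription factors that induce these cytokines had a median of 0.01, with 0 of 9 past the threshold by limma and 1 at an unadjusted p under 0.05. With single arrays left out this median ran from -0.14 to 0.12, the ends being reached when wild type replicates 3 and 1 were dropped. Irf1 was at -0.37, and Irf8, a factor of dendritic cells and macrophages, was at 0.01.

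Targets of interferon gamma had a median of -0.19, with 9 of 10 negative, 0 past the threshold by limma and 2 at an unadjusted p under 0.05. The immunity-related GTPase genes Igtp and Irgm1 were at -0.79 and -0.50, and Nos2, the inducible nitric oxide synthase gene, at 0.26. The chemokine genes Cxcl9 and Cxcl10 were at -0.62 and -0.08. With single arrays left out the list median ran from -0.36 to -0.02, the latter without wild type replicate 2. The interleukin 18 axis had a median of -0.02 (0.024 without wild type replicate 2), with 0 of 4 past the threshold by limma and 0 at an unadjusted p under 0.05.

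Among feedback inhibitors, 1 of 6 was past the threshold, and the list median was -0.07. Socs3, an inhibitor of JAK signalling best known downstream of gp130 receptors, rose. It read 5.47, 4.89 and 5.20 in wild type hearts and 6.25, 6.27 and 6.64 in knockout hearts, with the groups apart by 0.78. The difference was 1.20 (SE 0.16, limma adjusted p = 0.0153). The adjusted p rose to 0.0794 when knockout replicate 2 was left out, to 0.0639 for knockout replicate 3 and to 0.0553 for wild type replicate 3, which ended the call each time. The probe set is of the kind marked x, whose probes can also match other transcripts. The other probe sets of Socs3 did not pass. The one at 1.08 is also marked x, and the one at 0.53 is not. Socs1, the inhibitor best known downstream of interferon gamma, was at -0.07, and Usp18, which restrains type I interferon signalling, at -0.31.

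**Figure D5:**
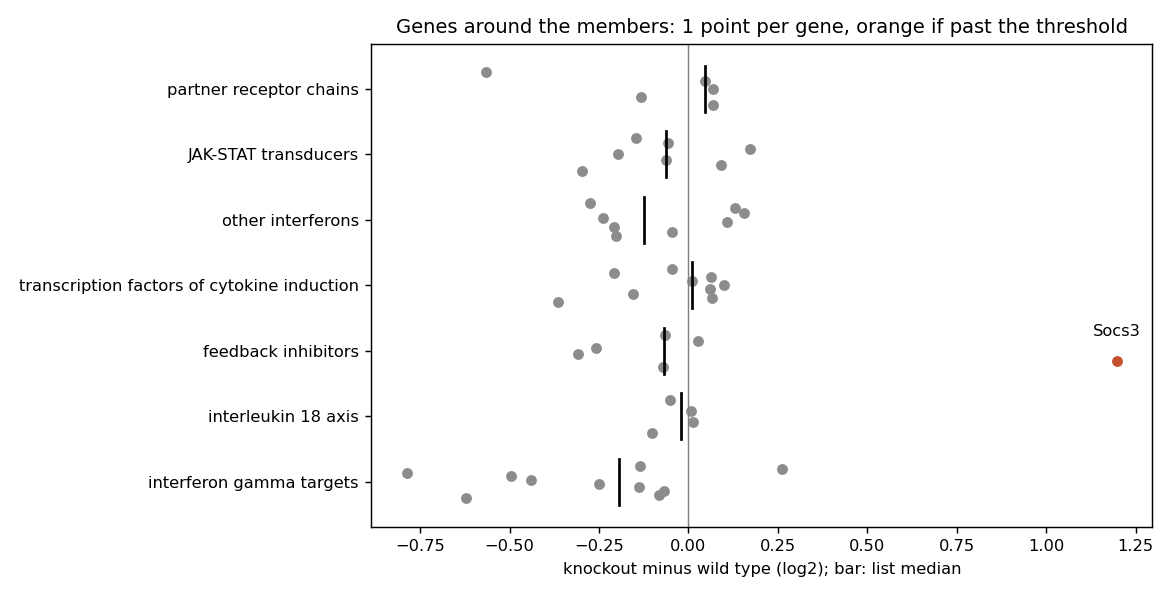
Difference between knockout and wild type (x axis, log2) of the 49 measured pathway genes by list (y axis), with 1 point per gene, vertical bars for the list medians and orange for a gene past the threshold. Socs3 at 1.20 is the 1 gene past it, and the list medians lie between -0.19 and 0.05.

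Markers of cells that make or answer these cytokines, and heat shock genes, listed because handling can move them, were read on the same arrays. Whether handling moved them here was not tested. In RNA from bulk heart tissue, a change in the number of cells of a type and a change in RNA per cell cannot be told apart. Macrophage markers were positive in 8 of 10 cases, with a mean log2 signal of 6.70 to 7.01 in wild type and 6.99 to 7.22 in knockout hearts and 4 of 10 with every knockout array above every wild type array, which held for 7.34% of all genes. Of the 10, 0 were past the threshold. Lyve1 had the largest difference, 0.79 (limma adjusted p = 0.158), and the 2 negative markers were Ccr2 at -0.11 and Cd163 at -0.02. Neutrophil markers had 2 of 4 measured positive, with S100a9 at 1.32 and S100a8 at 0.95, neither past the threshold, and a mean of 4.04 to 4.37 in wild type and 4.56 to 4.92 in knockout hearts. The other 2 measured, Csf3r and Cxcr2, were both at -0.02, and Ly6g and Retnlg were not measured. Heat shock genes were positive in 6 of 6 cases, with a mean of 7.74 to 7.90 in wild type and 8.59 to 9.04 in knockout hearts and 5 of 6 with every knockout array above every wild type array.

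Of the 6 heat shock genes, 2 were past the threshold, both higher in knockout hearts and by more than any member. Hspa1b, an inducible Hsp70 chaperone gene, read 5.99, 5.71 and 5.62 in wild type hearts and 8.40, 7.38 and 8.55 in knockout hearts (difference 2.33, SE 0.26, limma adjusted p = 0.00579), 5.04-fold. Its near-identical copy Hspa1a, which the probes may not tell apart from it, read 4.43, 4.41 and 3.98 in wild type hearts and 6.36, 5.59 and 7.47 in knockout hearts (difference 2.20, SE 0.37, limma adjusted p = 0.0429). Hspa1b kept its call with each single array left out (adjusted p at most 0.0359), and Hspa1a lost it without any 1 of the wild type arrays or knockout replicate 1 (adjusted p 0.104 to 0.148). Without knockout replicate 1 and wild type replicate 3 together neither passed (adjusted p 0.0927 and 0.309). Under other limma settings with all 6 arrays Hspa1b kept its call. Hspa1a lost it with the replicate block (adjusted p 0.0612), array weights (0.0529) and a robust variance prior (0.214). Of the atrial list, Nppa, the atrial natriuretic peptide gene, which loaded ventricles also express, was past the threshold (difference 1.19, limma adjusted p = 0.0496). It lost its call with every single array left out except wild type replicate 3 (adjusted p 0.0756 to 0.206). With all 6 arrays Nppa also missed the threshold under the robust variance prior (adjusted p 0.0568), median centring (0.0528) and the signal filter (0.0519).

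Dendritic cell markers were positive in 2 of 7 cases, with a mean of 3.68 to 3.82 in wild type and 3.65 to 3.79 in knockout hearts. T cell markers were positive in 2 of 6 cases (4.09 to 4.36 and 4.02 to 4.16), with Cd8b1 below the lower quartile on all arrays. NK cell markers were positive in 2 of 6 (3.20 to 3.35 and 2.98 to 3.21), with Klrk1 below it on all arrays. B cell markers were positive in 2 of 4 (3.53 to 3.73 and 3.47 to 3.63). The part of these cell types, of the heat shock genes and of the atrial genes of knockout replicate 1 in the values of Il12a, Il12b and Ifnb1 was not tested, beyond the values without that array given above.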

How the data were processed

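The authors deposited log2 signals per probe set for 6 arrays. Per the submitters' processing notes RMA and limma were used; versions and settings of both are not given in the sources used here. Quantile normalization in RMA equalises the arrays' distributions, which removes a shift common to an array and can compress dim differences. After 13 control rows were dropped, 38195 probe sets were fitted with limma 3.58.1 in R 4.3.3 (lmFit, eBayes, two-sided) and adjusted by Benjamini-Hochberg over all of them, at a threshold of 0.05. Every adjusted p comes from such a fit. Of these probe sets, 34325 had 1 symbol in the platform annotation. A list gene was read by its probe set with the highest mean signal.

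The members and lists were chosen with earlier results of these data known. Named were Tmbim1, all members and list genes past the threshold or, failing that, up to 3 with the smallest p. Of a marker list, up to 3 genes with the largest differences were named. Il27ra, Stat4, Cxcl9, Cxcl10, Irf8, Socs1 and Usp18 were added for their role, Cd8b1 and Klrk1 for their low signal and Nppa for its call. Ccr2, Cd163, Csf3r and Cxcr2 were added as the negative markers of their lists. With only 3 mice a group, precision is limited, and no scan date was analysed. In simulated arrays of this size (38195 probe sets), 9 of 78 shifts of 0.5 (log2) were recovered, 48 of 52 of 1 and 68 of 70 of 1.5, with 3 false among 128 calls. The simulated noise was normal and unrelated to signal, and no simulated array stood apart, so these rates may not hold for the real arrays. Same-numbered wild type and knockout arrays deviated from their group means with correlations of 0.060, 0.138 and 0.016. Those of different number had correlations of -0.144 to 0.075. The labels do not back a pairing, and the numbers were not taken as pairs. Alternatives were the replicate block, 2 other variance priors, array weights, quantile normalization again, median centring, a signal filter, the brightest probe set of each gene alone, a plain two-group test, an unadjusted threshold and arrays left out; dropping knockout replicate 1 and wild type replicate 3 together was chosen after seeing the data.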

Additional observations from a re-analysis of the deposited data

How the results depend on the processing

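Il12a kept its direction and its call in all 14 limma alternatives in which it was tested, and Ifnb1 in all 15. The brighter Il12b probe set lost its call in 2 of 14. All 3 lost it in the ordinary two-sample test, which shares no variance between probe sets and passed 1 probe set. The filter at the 40th percentile of mean signal removed Il12a, both Il12b probe sets, Il23a, Ifng, Il12rb1 and Il12rb2 from the test and left 1 member probe set past the threshold, where all 6 arrays without it gave 3. With single arrays left out, 2 to 3 member probe sets, 0 to 1 pathway genes and 38 to 86 of all probe sets were past the threshold, against 161 with all arrays. With knockout replicate 1 and wild type replicate 3 both left out, these counts were 2, 0 and 29, and the differences of the dimmer Il12b probe set (0.0009), Ifng (0.0016) and Ebi3 (-0.071) turned direction. Single arrays left out also turned members that did not pass: the dimmer Il12b probe set ran from -0.095 to 0.072, Il23a from -0.023 to 0.093, Ifng from -0.089 to 0.0069, Ebi3 from -0.13 to 0.22 and the brighter Ifnar1 probe set from -0.047 to 0.091. With 1 probe set per gene 102 probe sets passed. A total of 547 had a fold change of 1.5 at an unadjusted p under 0.05. With the replicate block, which is not backed by the labels, 168 probe sets passed, and the same 3 member probe sets did (Il12a adjusted p = 0.00231, Ifnb1 0.00538, Il12b 0.0303). The median of the partner receptor chains turned to -0.13 without both arrays that stood apart, and to -0.061 and -0.08 when wild type replicates 1 and 3 were dropped singly, and the median of the interferon gamma targets was -0.47 under the signal filter. The causes of these changes were not tested, beyond fewer arrays or fewer probe sets in the fit. The dim signals of Il23a, Ifng, Il12rb1 and the dimmer Il12b probe set, below the lower quartile of every array, limit what their small differences can show.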
